A study of Mus musculus with 12 samples.

Results

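The study placed circular RNAs (circRNAs) of the host genes Camsap2, Robo1, Lpgat1, Mllt10, Ptov1 and Phf8 in a network of candidate microRNA (miRNA) decoys of the degenerating mouse retina. The members described here are the 33 back-splice junctions, of 12510 in the circRNA table, whose host is one of these 6 genes, together with the rows of the 6 genes in the gene table. They held 830 junction reads over 12 samples, and 17 of the 33 carry a circBase identifier. Total RNA of whole retina was sequenced after removal of ribosomal RNA, so linear and circular transcripts were read from the same libraries.

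Each of 4 groups had 3 samples. The C3H group was labelled wild type and had 1 sample at each of postnatal days 13 (replicate 1), 23 (replicate 2) and 29 (replicate 3). The Pde6b rd1 group was taken at day 13 and the Pde6b rd10 group at day 23. Both carry mutations in the beta subunit of the rod phosphodiesterase. The Prph rd2 group was taken at day 29 and carries a mutation in peripherin 2, a protein of the outer segment disc rim. Each age was chosen as the peak of photoreceptor death in that model. The study's methods put rd1 and rd2 on a C3H background and rd10 on C57Bl6/J, while the sample labels put rd2 on C57BL6/J, so that mutation and strain cannot be told apart for rd10 or, by the labels, for rd2. Animals were used without regard to sex, and the sources do not say whether animals were pooled or how samples of a group relate. The p-values measure the spread between these samples, which in the models may be technical and in C3H also holds age. Each model has 1 C3H sample of its own age, so age differs with group in every contrast with C3H and between models, and age and mutation cannot be told apart there.

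A circRNA forms when the splicing machinery joins the end of an exon to the start of the same or an upstream exon. The product has no free ends, which protects it from exonucleases, and it is told from the linear transcript only by reads across the back-splice. Neurons, including those of the retina, are rich in circRNAs. A circRNA with sites for an miRNA can in principle hold that miRNA away from its messenger RNA targets, which is the decoy model. It requires enough copies and enough sites to matter, and neither miRNA levels nor binding was measured in the files analysed here.

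Junctions 1 of Camsap2 and Lpgat1 and junction 2 of Robo1, on which most calls rest, a neighbouring Camsap2 junction for contrast, and the most heavily read junctions of Mllt10 and Ptov1 are shown as the 20 bases before the back-splice, in lower case, followed by the 20 bases after it, in capitals. A read has to hold both sides to count. Bases are from GRCm38, in transcript sense, and exon numbers are those of the matched GENCODE transcript.
Camsap2 exon 17 to exon 12, chr1:136273750-136282881, minus strand: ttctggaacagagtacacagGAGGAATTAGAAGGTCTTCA
Camsap2 exon 8 to exon 3, chr1:136292880-136304456, minus strand: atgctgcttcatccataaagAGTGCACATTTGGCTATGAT
Robo1 exon 6 to exon 3, chr16:72904630-72935786, plus strand: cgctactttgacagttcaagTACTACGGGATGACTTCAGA
Lpgat1 exon 6 to exon 3, chr1:191749540-191763671, plus strand: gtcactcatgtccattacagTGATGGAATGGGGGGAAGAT
Mllt10 exon 13 to exon 10, chr2:18159456-18171075, plus strand: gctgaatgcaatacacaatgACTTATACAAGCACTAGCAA
Ptov1 exon 10 to exon 6, chr7:44864383-44865627, minus strand: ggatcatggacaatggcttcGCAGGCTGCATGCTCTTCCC
Within each host the junctions are numbered along the chromosome. In that numbering these are Camsap2 junctions 1 and 2, Robo1 junction 2, Lpgat1 junction 1, Mllt10 junction 13 and Ptov1 junction 1.

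Both ends of 27 of the 33 junctions fell on exon ends of 1 annotated transcript of the host. The 27 predicted circles were 245 to 2811 bases long once spliced, with a median of 648, against a median of 669 over the 11801 circRNAs of the table that could be matched in this way. All 10 junctions with enough reads for a test, apart from Mllt10 junction 3, were among the 27, and the bases inside those 9 were coding.

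**Figure D1:**
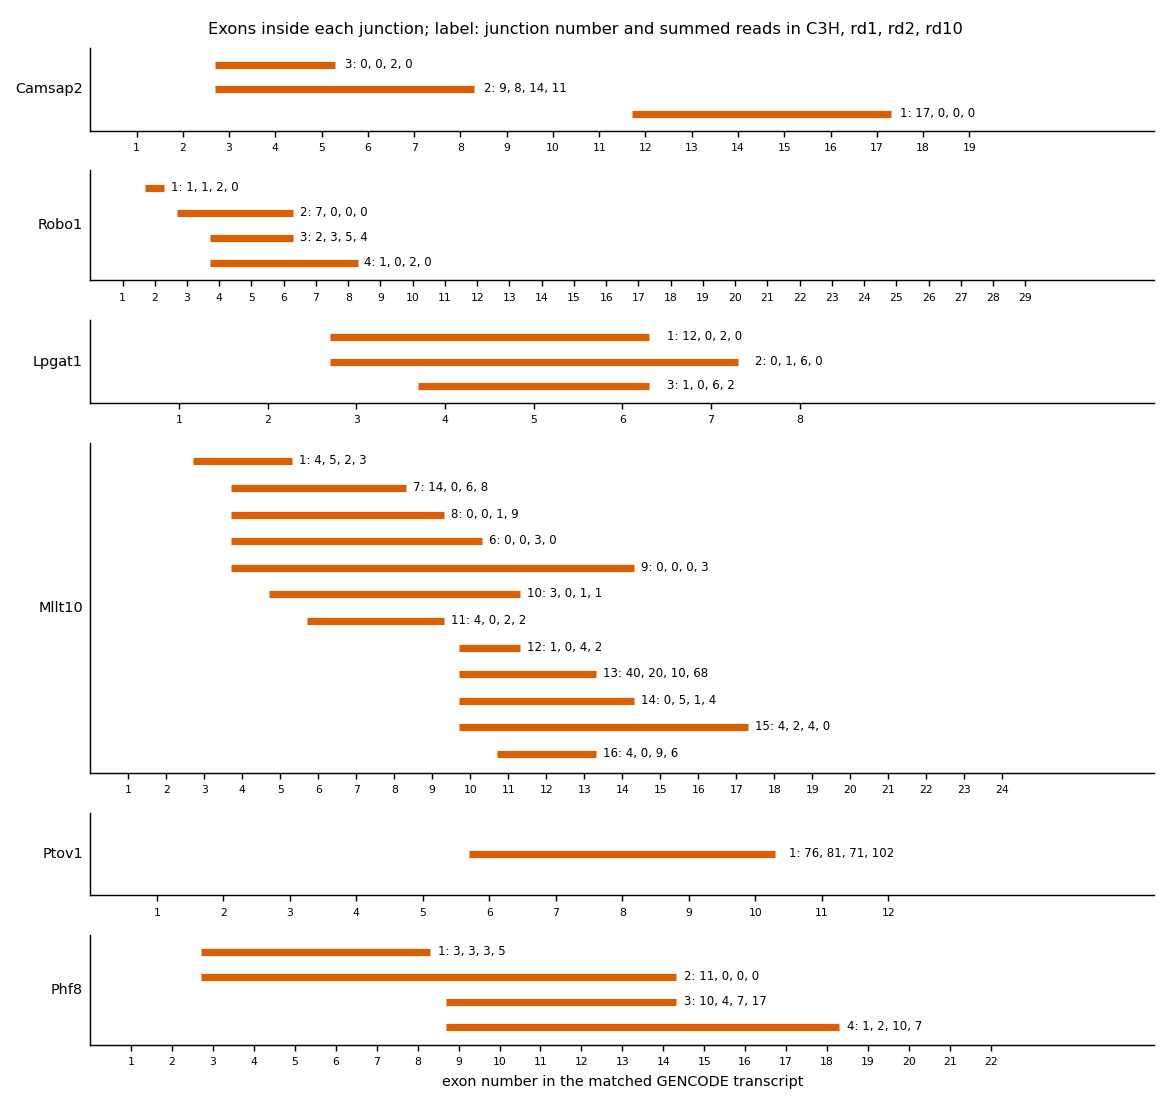
Exons enclosed by each of the 27 matched junctions of the 6 hosts. The x axis is the exon number in the matched transcript, each bar is 1 junction, and its label gives the junction number and the reads summed over the 3 samples of C3H, rd1, rd2 and rd10 in that order. Mllt10 junction 6 and Camsap2 junction 3 matched another transcript of the gene and carry its numbering. Camsap2 junction 1 was read 17 times in C3H and 0 times in each model, while Camsap2 junction 2, at the other end of the gene, was read 9, 8, 14 and 11 times.

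Depth set what could be seen. A sample held 9819 to 25009 junction reads in all, against 17049495 to 24755890 gene reads, and the rd1 samples were the shallowest, with 9819 to 14966 junction reads. Junction reads per 1000000 gene reads were 576 to 685 in rd1, 734 to 917 in C3H, 771 to 895 in rd2 and 966 to 1046 in rd10, a difference that stands beside every comparison of circRNAs with rd1 below. A group without a read at a junction allows up to 3 reads over its 3 samples, and that limit is used for every fold below. Intervals and limits given here cover counting error only. The fold limits cover that of the model alone, with the C3H count taken as exact. The summed FPKM of 8 rod markers was 4879.8 to 4970.4 in C3H, 2523 to 2549.6 in rd1, 3323 to 3529 in rd2 and 4324 to 4488 in rd10, and no marker was at 0. The summed FPKM of 8 microglia markers was 32.4 to 33.8 in C3H and 125 to 132 in rd10. That of 6 Mueller glia markers was 724 to 739 in C3H and 355 to 362 in rd1, and that of 6 ganglion cell markers 317 to 329 and 243 to 247. The sum of 7 cone markers was 191 to 192 in C3H, 118 to 122 in rd1 and 290.1 to 294 in rd10. In bulk tissue fewer cells of a type and less RNA per cell cannot be told apart, and the part of cell composition in the results below was not tested.

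Camsap2 encodes a protein that binds the minus ends of microtubules and stabilises non-centrosomal microtubules in neurons. Its junction 1, mmu_circ_0008206, joins exons 12 to 17 of 19 into a predicted circle of 2811 bases. It was read 5, 9 and 3 times in C3H replicates 1 to 3 and 0 times in each of the 9 model samples. The C3H sample of every age thus held reads, and no model sample did. With the C3H count taken as exact, junction 1 was at least 3.81-fold lower in rd1, 6.36-fold in rd2 and 6.74-fold in rd10. The adjusted p (edgeR quasi-likelihood test, Benjamini-Hochberg over all circRNAs tested) was 0.407 in rd1, 0.752 in rd2 and 0.0323 in rd10. In each model this junction met the read filter through the C3H samples alone, so the test could only find it lower, and the p-values are no independent support.

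Camsap2 junction 2, mmu_circ_0008207, encloses exons 3 to 8 and behaved differently in the same libraries. Its reads were 1, 7 and 1 in C3H, 4, 2 and 2 in rd1, 0, 8 and 6 in rd2, and 3, 0 and 8 in rd10. The groups overlapped throughout. Relative to all junction reads, the ratio of rd1 to C3H was 1.32 (exact 95% interval 0.444 to 3.86), that of rd2 to C3H was 1.39 (0.559 to 3.63) and that of rd10 to C3H was 1.03 (0.387 to 2.80). Junction 1 made up 17 of the 26 Camsap2 junction reads in C3H, which is 65.4% (exact Clopper-Pearson 95% interval 44.3 to 82.8). In the models it made up 0 of 8 reads in rd1, 0 of 16 in rd2 and 0 of 11 in rd10. The exact upper limits of these shares were 36.9%, 20.6% and 28.5%. The shares rest on the same junction 1 reads as the fold limits, pooled over samples, and are no independent support. Camsap2 junction 3 was read 2 times, in 1 rd2 sample.

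Robo1 encodes a receptor for Slit ligands that guides axons during development. Its junction 2, mmu_circ_0006385, joins exons 3 to 6 of 29 and was read 2, 2 and 3 times in C3H and in no model sample. At 7 reads in all this was the least read of the junctions called. With the C3H count taken as exact, junction 2 was at least 1.57-fold lower in rd1, 2.62-fold in rd2 and 2.78-fold in rd10. The counting error of the 7 C3H reads is not covered by these limits. The edgeR adjusted p was 0.523, 0.981 and 0.167 in rd1, rd2 and rd10. Junction 3, mmu_circ_0000698, uses the same end of exon 6 and starts at exon 4 in place of exon 3. It was read in both C3H and the models, 2 times in C3H, 3 times in rd1, 5 times in rd2 and 4 times in rd10. Junction 2 gave 63.6% of the 11 Robo1 junction reads in C3H (exact interval 30.8 to 89.1) and 0 of 9 in rd2 (exact upper limit 33.6%). With 4 Robo1 junction reads each, rd1 and rd10 had exact upper limits of 60.2%. These shares rest on the same junction 2 reads as the fold limits, pooled over samples, and are no independent support.

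Lpgat1 encodes an acyltransferase of phospholipid remodelling. Its junction 1, mmu_circ_0000135, joins exons 3 to 6 of 8 into a predicted circle of 616 bases. Each C3H sample held 4 reads, the rd1 and rd10 samples held 0, and the rd2 samples held 0, 2 and 0. With the C3H count taken as exact, junction 1 was at least 2.69-fold lower in rd1 and 4.76-fold in rd10. The edgeR adjusted p was 0.472 in rd1 and 0.0742 in rd10. In rd2 it was at 0.148 of the C3H level by pooled reads (exact interval 0.0161 to 0.667). The edgeR test over the rd2 samples gave log2 fold change -2.47, SE 1.24, adjusted p 0.997. Its unadjusted p of 0.0595 missed the call, and without rd2 replicate 2 it was called.

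In rd2 most Lpgat1 junction reads lay at the other junctions. Junction 2, which runs from exon 3 to exon 7, was read 0, 4 and 2 times in rd2 and not at all in C3H. Junction 3, from exon 4 to exon 6, was read 1, 2 and 3 times in rd2 and 1 time in C3H. Summed over the 3 junctions, Lpgat1 had 13 reads in C3H and 14 in rd2. Junction 1 made up 12 of the 13 in C3H (92.3%, exact interval 64.0 to 99.8) and 2 of the 14 in rd2 (14.3%, 1.78 to 42.8), and those intervals do not overlap. This comparison of isoforms was chosen after the values were seen.

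The study tested these Camsap2 and Lpgat1 circles by PCR, and its primers show which junctions such a product could come from. The pairs are printed because their placement decides this.
mmu_circ_0008206 forward: gccaaggtcggagtctgtagaa
mmu_circ_0008206 reverse: cgttcctatgaagccatcaaca
mmu_circ_0000135 forward: aggaggagacgctagaggctta
mmu_circ_0000135 reverse: gcgattgctttaatatcttccc
No primer lies across a back-splice itself. The forward primers point towards it from the 3′ side of the circle and the reverse primers from the 5′ side, so each product spans it. For Camsap2 the pair matched junction 1 and no other Camsap2 junction, with a predicted product of 175 bases. For Lpgat1 the pair matched junction 1, with 184 bases, and also junction 2, with 291 bases, since both circles hold exons 3 to 6. Junction 3 lacks exon 3 and had no match to the reverse primer.

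**Figure D2:**
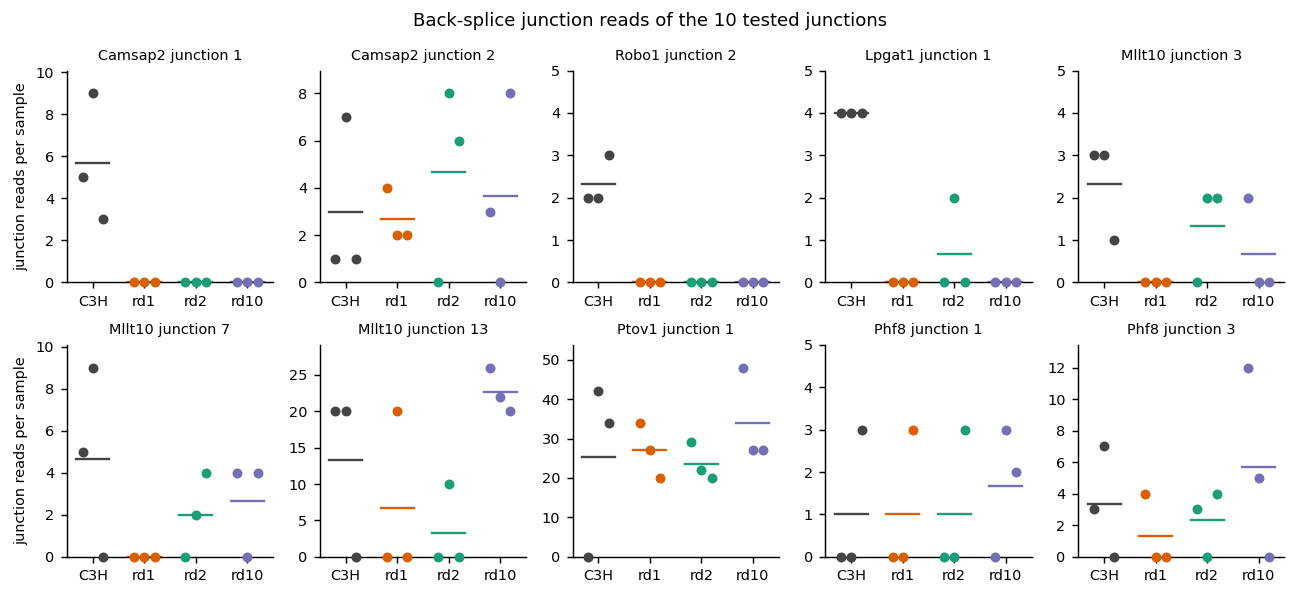
Junction reads per sample for the 10 junctions of the 6 hosts that passed the read filter in at least 1 comparison. Points are samples in order of replicate number, horizontal lines are group means of 3 samples, and the y axis differs between panels. Camsap2 junction 1 and Robo1 junction 2 have all points above 0 in C3H and all 9 model points at 0, Lpgat1 junction 1 has 1 model sample above 0, and Mllt10 junction 13 holds samples at 0 and samples at 10 or 20 reads within C3H, rd1 and rd2 and 20 to 26 reads in rd10.

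Across the 6 hosts, 3 of the 7 junctions tested in rd1, 3 of 10 in rd10 and 3 of 9 in rd2 were called, all lower than C3H. For a call the unadjusted p had to be below 0.05 and the difference at least 2-fold. Of all junctions tested, 6.37% were called in rd1, 11.8% in rd10 and 3.44% in rd2. Camsap2 junction 1 and Robo1 junction 2 were called in every model. Lpgat1 junction 1 was called in rd1 and rd10, and Mllt10 junction 13 in rd2. The shares of members cannot be read as support. The filter asked for at least 2 reads in at least 3 of the 6 samples, and 3 of the junctions tested in rd1, 3 in rd10 and 2 in rd2 met it through the C3H samples alone, so they had to differ. The network was also drawn from circRNAs called on these same samples, so their direction is not independent evidence. Leaving out C3H replicate 1, 2 or 3 left 0, 0 and 0 calls in rd1, 1, 0 and 0 in rd10 and 0, 0 and 1 in rd2. Junctions read only in C3H then failed the filter, as did Mllt10 junction 13 in rd2 without C3H replicate 1 or 2. The 1 call in rd10 was Mllt10 junction 13, higher. Without rd2 replicate 3 the rd2 count was 1, and Robo1 junction 2 was also lost in rd1 without rd1 replicate 1 or 3.

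The pattern of Camsap2 junction 1 and Robo1 junction 2 was then counted over the table, as a description, since it was taken from these junctions. Of 1009 circRNAs with at least 2 reads in each C3H sample, 3 (0.297%) had 0 in all 9 model samples. They are these same 2 junctions and a junction of Tbck with 7, 10 and 6 reads in C3H. By model, 3.96% of the 1009 were at 0 in the 3 rd1 samples, 1.29% in rd2 and 2.87% in rd10. In the other direction, 0.605% of the 661 circRNAs with at least 2 reads in each rd1 sample were at 0 in the 3 C3H samples. The same share was 1.65% of 1094 for rd2 and 6.62% of 1208 for rd10.

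Mllt10 encodes AF10, a chromatin reader that works with the histone methyltransferase DOT1L. It hosted 16 of the 33 junctions, more than in 98.1% of hosts in the table, and 293 reads. Junction 13, from exon 13 to exon 10 of 23, held 47.1% of those reads and was either plainly present or missing. Its reads were 20, 20 and 0 in C3H, 0, 20 and 0 in rd1, 0, 10 and 0 in rd2, and 26, 22 and 20 in rd10. All rd10 samples held reads, while each other group held both states. Relative to depth the groups overlapped, since rd1 replicate 2 was at 2037 CPM (counts scaled to 1000000 junction reads) and C3H replicate 1 at 1161, against 956 to 1217 in rd10. Of the 290 circRNAs with a mean of at least 10 reads, 11.4% were at 0 in at least 1 sample, and 2 of them (0.69%), this one and a Phf21a junction, were at 0 in at least 5. The edgeR log2 fold change was -0.46 (SE 0.94) in rd1, 0.57 (SE 0.46) in rd10 and -1.99 (SE 0.92) in rd2, with adjusted p of 0.985, 0.737 and 0.997. The rd2 call was lost without rd2 replicate 1 (log2 fold change -1.52) and without rd2 replicate 3 (-1.45). In rd10 Mllt10 junction 13 was called higher without C3H replicate 1 (1.03).

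Other Mllt10 junctions were read in few samples each. Junction 7, mmu_circ_0000983, encloses exons 4 to 8 and had 5, 9 and 0 reads in C3H, 0 in each rd1 sample, 0, 2 and 4 in rd2, and 4, 0 and 4 in rd10. Junction 3, mmu_circ_0009658, had 3, 3 and 1 reads in C3H, 0 in each rd1 sample, 0, 2 and 2 in rd2, and 2, 0 and 0 in rd10. Neither passed the test in a model where it was tested, and in rd1 neither met the filter. Junction 4, mmu_circ_0009659, had 0 reads in C3H and 7, 4 and 8 in rd1, rd2 and rd10. The junctions of the 6 hosts that met the filter in no comparison numbered 23, with 2 to 20 reads each over the 12 samples and a median of 7.

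Ptov1 encodes a protein first described as overexpressed in prostate tumours. It had 1 junction, read 330 times, the largest count among the 33. Reads were 0, 42 and 34 in C3H, 34, 27 and 20 in rd1, 29, 22 and 20 in rd2, and 48, 27 and 27 in rd10. All samples but C3H replicate 1 held at least 20, although that sample had 2665 reads of the Ptov1 gene, within the range of the others. Of the 105 circRNAs with a mean of at least 20 reads, 4 (3.81%) were at 0 in any sample. No model differed from C3H by the call (log2 fold changes 0.49, 0.19 and -0.15 in rd1, rd10 and rd2, SE 0.53, 0.47 and 0.54, adjusted p 0.973, 0.921 and 0.997 in edgeR). The summed value, 0.59 (SE 0.46) in rd1, was called higher without C3H replicate 3 (1.02), and without C3H replicate 1 the log2 ratio of Ptov1 junction to gene reads in rd1 went from 0.19 to -0.37.

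The Ptov1 junction also stood apart in sequence, since Ptov1 carries an internal repeat. Its 40 bases across the back-splice matched 38 bases of a linear Ptov1 transcript, shown with the 2 differing bases in capitals.
Ptov1 linear: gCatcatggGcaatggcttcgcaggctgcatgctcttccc
The last 20 bases of exon 10 shared 18 with the last 20 of exon 5, the exon that is spliced to exon 6 in the linear transcript. The first 20 bases of exon 6 shared 16 with those of exon 11. Over 100 bases across the back-splice the match was 87 bases, against 58 to 72 for the other member junctions. A match of at least 38 of 40 bases in a linear transcript of the same host was found for 34 of 11801 circRNAs (0.288%), with a median of 27 bases over all of them. The 330 Ptov1 reads are therefore reported as uncertain, since linear reads with few mismatches and back-splice reads are nearly alike here, and their share was not tested. The other 26 member junctions that could be compared matched at most 32 of 40 bases.

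**Figure D3:**
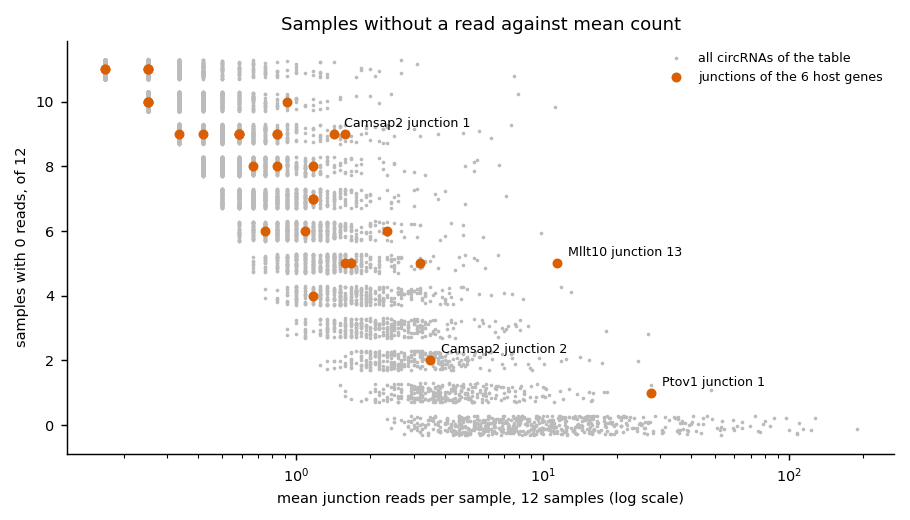
Number of samples without a read, of 12, against the mean junction reads per sample on a log scale. Grey points are all 12510 circRNAs, spread slightly along y so that they can be seen, and orange points are the 33 junctions of the 6 hosts. Mllt10 junction 13, with 5 samples at 0, and Ptov1 junction 1, with 1, lie at the edge of the cloud for their mean, while Camsap2 junction 2 lies inside it.

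Phf8 encodes an X-linked histone demethylase. Its junction 3, mmu_circ_0016166 at chrX:151565372-151573516 on the plus strand, encloses exons 9 to 14 of 22 and was read 3, 7 and 0 times in C3H, 4, 0 and 0 in rd1, 3, 0 and 4 in rd2, and 12, 5 and 0 in rd10. Every group held at least 1 sample at 0. Junction 1, from exon 3 to exon 8, was read in 5 samples, 3 times in 1 sample each of C3H, rd1 and rd2, and 3 and 2 times in rd10. Neither was called in a model. Junction 2, which joins exons 3 to 14 and so covers both, had 5 and 6 reads in C3H replicates 1 and 2 and 0 in the other 10 samples. It met the filter in no comparison and is named after its values were seen. By pooled reads, with the C3H count taken as exact, it was at least 2.46-fold, 4.12-fold and 4.36-fold lower in rd1, rd2 and rd10. C3H replicate 3, the C3H sample of the age of rd2, was itself at 0. These limits therefore do not cover the spread within C3H. Junction 4, from exon 9 to exon 18, had 1 read in C3H, 2 in rd1, 10 in rd2 and 7 in rd10. Its pooled ratio of rd2 to C3H was 8.91 (exact interval 1.27 to 387). The rd2 reads were 0, 3 and 7 in replicates 1 to 3, and the interval does not cover this spread. Junction 4 met the filter in no comparison and is also named after its values were seen.

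Summing all junctions of a host asks whether its circular output as a whole differed. Lpgat1 was called lower in rd1 (log2 fold change -2.86, SE 1.38, adjusted p 0.574 in edgeR) and in rd10 (-2.69, SE 1.13, adjusted p 0.237). The other 5 hosts were not called, and in rd2 no host was (0 of 6, 0 of them at an unadjusted p under 0.05 in edgeR, and 0 in DESeq2). This is 1 of 6 hosts in rd1, against 5.98% of all hosts, 1 of 6 in rd10, against 10.1%, and 0 of 6 in rd2, against 3.96%. Lpgat1 had 4, 5 and 4 summed reads in C3H, 0, 0 and 1 in rd1, 1, 8 and 5 in rd2, and 1, 0 and 1 in rd10, so that the rd1 and rd10 samples all lay below the C3H samples. Against rd1 and rd10 it met the read filter through the C3H samples alone. The test could thus only find it lower, and these calls and shares are no independent support. The rd1 call was lost without rd1 replicate 1 (log2 fold change -2.23) and without rd1 replicate 2 (-2.50), and the rd10 call without rd10 replicate 2 (-2.27). Without C3H replicate 1, 2 or 3 Lpgat1 failed the filter in both models and had no value.

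Camsap2 had 6, 16 and 4 summed reads in C3H, 4, 2 and 2 in rd1, 0, 8 and 8 in rd2, and 3, 0 and 8 in rd10. Its edgeR log2 fold changes were -1.14 (SE 0.74), -0.79 (SE 0.71) and -1.35 (SE 0.77) in rd1, rd2 and rd10, with adjusted p of 0.782, 0.996 and 0.500. Without rd10 replicate 3 Camsap2 was called lower in rd10 (-2.61). Robo1 had 11 reads in C3H, 4 in rd1, 9 in rd2 and 4 in rd10, with log2 fold changes of -0.86 (SE 1.15), -0.40 (SE 0.97) and -1.60 (SE 1.09). Mllt10 hung on single libraries. Its rd1 log2 fold change was -0.38 (SE 0.56) with all samples and -2.33, a call, without rd1 replicate 2, which held 33 of the 41 rd1 reads. In rd2 it was -0.74 (SE 0.54), and it was called without rd2 replicate 2 (-1.48) and without C3H replicate 3 (-1.21). The C3H samples of Mllt10 had 40, 40 and 3 reads, a wider spread than the gap between any pair of groups. Phf8 had 27 reads in C3H, 9 in rd1, 23 in rd2 and 29 in rd10, with log2 fold changes of -1.03 (SE 0.73), -0.33 (SE 0.59) and -0.07 (SE 0.59).

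The models were also compared with each other on summed junctions, in 1 edgeR fit of the 12 samples. For rd10 against rd1 edgeR called 0 of the 6 hosts (DESeq2 called 0, and 0 had p below 0.05 in edgeR before adjustment), against 12.3% of all hosts. For rd2 against rd1 Lpgat1 was called higher in rd2 (log2 fold change 2.85, SE 1.40, adjusted p 0.554), against 6.98% of all hosts. For rd10 against rd2 Lpgat1 was called lower in rd10 (-2.61, SE 1.23, adjusted p 0.436) and Mllt10 higher (1.10, SE 0.51, adjusted p 0.433), against 8.72%. Lpgat1 held fewer than 2 reads in every rd1 and rd10 sample and met the read filter through the C3H and rd2 samples alone. Its calls here and the shares beside them are thus no independent support. The Mllt10 samples of rd10 held 46, 40 and 30 reads and those of rd2 held 5, 32 and 16, which overlap. For rd10 against rd1 Mllt10 was called higher without rd1 replicate 2 (2.65). These contrasts share their model samples and are given side by side.

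No host differed by 1.5-fold in the reads of the whole gene, although smaller differences passed the test in rd1 and rd10. In FPKM, which divides by transcript length and depth, the C3H levels ran in the order Lpgat1 (59.8 to 63.0), Ptov1 (31.9 to 34.9), Camsap2 (29.3 to 30.4), Mllt10 (14.6 to 14.9), Phf8 (11.7 to 12.3) and Robo1 (2.64 to 2.76), with no overlap between neighbours. Lpgat1 was at 63.0, 61.4 and 59.8 FPKM in C3H, 54.9, 54.5 and 55.6 in rd1, 66.0, 66.4 and 73.6 in rd2, and 45.5, 43.2 and 47.8 in rd10. The rd1 and rd10 samples were all below the C3H samples and the rd2 samples all above. On gene counts the log2 fold change of Lpgat1 was -0.23 (SE 0.03, adjusted p 5.56e-07 in edgeR) in rd1, -0.49 (SE 0.04, adjusted p 9.84e-10) in rd10 and 0.13 (SE 0.05, adjusted p 0.126) in rd2.

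Camsap2 was at 29.3 to 30.4 FPKM in C3H, 35.0 to 36.4 in rd1, 30.3 to 33.4 in rd2 and 28.6 to 29.9 in rd10, so its gene reads were higher in rd1 (log2 fold change 0.17, SE 0.03, adjusted p 8.68e-05 in edgeR) where junction 1 had no read. Robo1 was higher in rd1 as well (0.13, SE 0.05, adjusted p 0.029). Mllt10 was higher in rd1 (0.18, SE 0.04, adjusted p 0.000442) and lower in rd10 (-0.12, SE 0.04, adjusted p 0.0246). Ptov1 and Phf8 were lower in rd10 (-0.25 and -0.28, SE 0.05 and 0.05, adjusted p 0.000507 and 2.38e-05). All these differences were below the 1.5-fold required for a call. Thus 0 of 6 hosts were called in any model by edgeR, DESeq2 or limma on FPKM, against 15% of all genes in rd1, 23.9% in rd10 and 4.57% in rd2. At an unadjusted p under 0.05 alone edgeR gave 4 hosts in rd1, 5 in rd10 and 2 in rd2, where 49.7%, 58.9% and 23.8% of all genes passed.

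**Figure D4:**
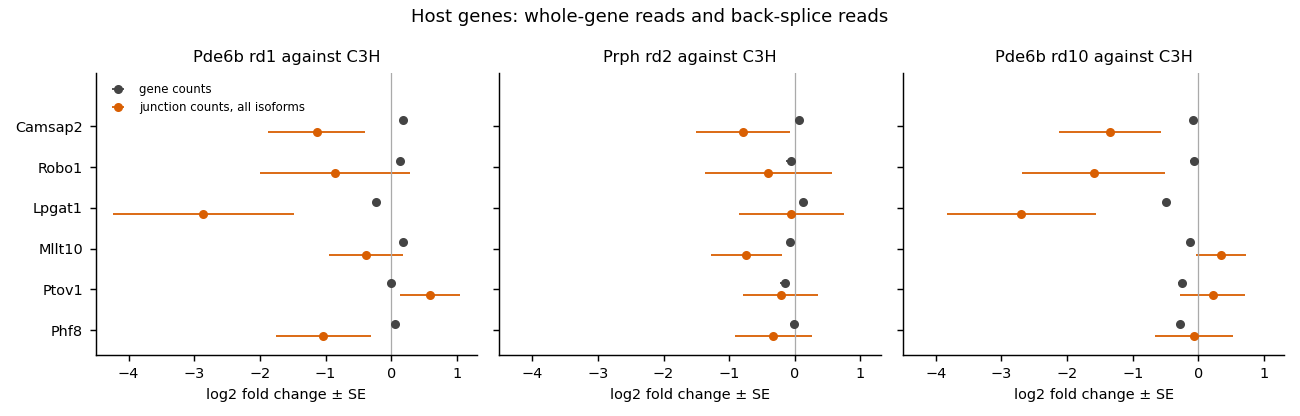
Log2 fold change against C3H of the 6 hosts in each model, with the SE of the edgeR fit as horizontal bars, for gene counts (grey) and for junction counts summed over all isoforms (orange), on 1 shared axis. Gene counts lie between -0.49 and 0.18 with SE bars mostly smaller than the points, while junction counts lie between -2.86 and 0.59 with wide bars, and the Lpgat1 junction values in rd1 and rd10 are the lowest.

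Junction reads were then set against the reads of their own gene, which include reads of the circles themselves. Camsap2 had 1.09, 2.38 and 0.750 junction reads per 1000 gene reads in C3H, 0.568, 0.364 and 0.310 in rd1, 0, 1.20 and 1.07 in rd2, and 0.440, 0 and 1.45 in rd10. The rd1 samples lay below all C3H samples, and the rd2 and rd10 samples overlapped with them. Lpgat1 had 0.421, 0.445 and 0.443 in C3H, 0, 0 and 0.123 in rd1, 0.0841, 0.662 and 0.368 in rd2, and 0.117, 0 and 0.138 in rd10. In rd1 the edgeR test with gene reads as offset called Camsap2 (log2 fold change -1.73, SE 0.75, adjusted p 0.235), Lpgat1 (-3.03, SE 1.37, adjusted p 0.259) and Phf8 (-1.53, SE 0.74, adjusted p 0.306) lower, 3 of 6 against 11.1% of all hosts. Lpgat1 again met the read filter through the C3H samples alone, so its call is no independent support. The median of all hosts in rd1 was itself -0.57. With the offset centred on the hosts as a whole, no member was called, and the values of Camsap2, Lpgat1 and Phf8 became -1.29, -2.67 and -1.09. The rd1 calls were sensitive to single samples. Without rd1 replicate 2 all 3 were lost and Mllt10 was called in their place (-2.91, against -1.04 with all samples), and Mllt10 was also called without C3H replicate 3 (-1.55). The count was 1 without rd1 replicate 1 (Camsap2) or C3H replicate 1 (Camsap2), and 0 without C3H replicate 2. No member was called in rd10, against 10% of all hosts, or in rd2, against 3.67% (0 at an unadjusted p under 0.05 in edgeR and 0 calls in DESeq2 in both), except when 1 sample was left out. Camsap2 was then called lower in rd10 without rd10 replicate 3, Mllt10 higher in rd10 without C3H replicate 1, and Mllt10 lower in rd2 without rd2 replicate 2 or C3H replicate 3.

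**Figure D5:**
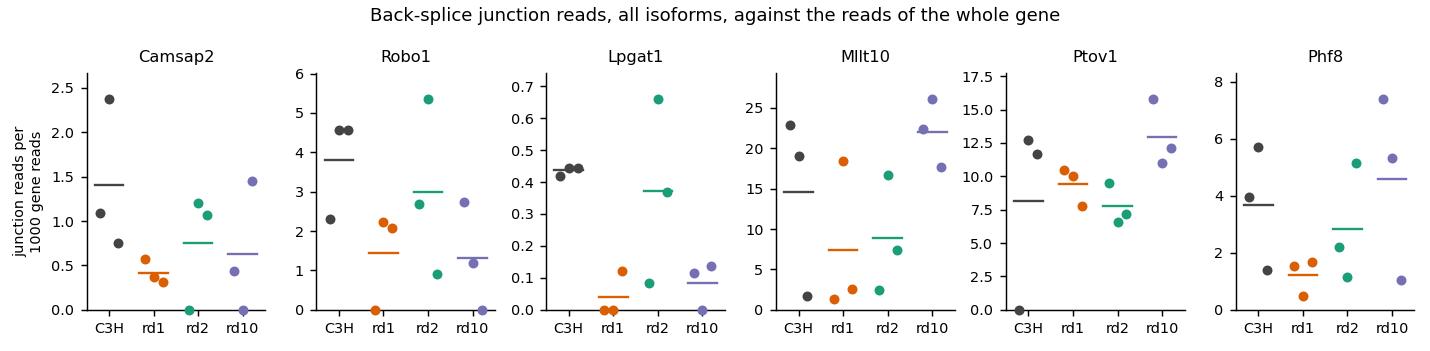
Junction reads of all isoforms per 1000 reads of the whole gene, by sample. Points are samples in order of replicate number, lines are group means of 3 samples, and the y axis differs between panels. Lpgat1 has its 3 C3H samples between 0.421 and 0.445 and all rd1 and rd10 samples at or below 0.138, while Mllt10 spans 1.76 to 22.9 within C3H.

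The circles were searched for matches to the seeds (bases 2 to 8) of miRNAs that are abundant in retina, as a description of the decoy model's first requirement. The sequences used, from RefSeq on the same build, are printed for the miRNAs with a match in a tested circle, with the seed in capitals. The list was miR-183-5p, miR-96-5p, miR-182-5p, miR-124-3p, miR-9-5p, miR-204-5p, miR-211-5p, miR-181a-5p, let-7a-5p and miR-125b-5p. A sequence was found for 9 of these, and miR-124-3p, which had none, was not searched. Mllt10 junction 3 had no matched exons and was not searched either.
miR-182-5p: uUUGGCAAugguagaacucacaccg
miR-9-5p: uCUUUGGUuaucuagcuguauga
miR-204-5p: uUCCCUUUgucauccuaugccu
miR-211-5p: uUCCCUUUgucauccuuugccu
Lpgat1 junction 1 held 2 matches to the miR-182-5p seed (TTGCCAA in the circle), and 8.35% of the 1342 circles within 10% of its length held at least 1. The same letters occurred 1 time in Camsap2 junction 2 (8.97% of 1338 like circles) and 1 time in Mllt10 junction 7 (7.08% of 1299). The seed shared by miR-204-5p and miR-211-5p (AAAGGGA) had 2 matches in Camsap2 junction 1, where 28.6% of the 241 circles of like length had at least 1, and 1 in Mllt10 junction 13 (9.81% of 1121). The miR-9-5p seed (ACCAAAG) had 1 match in Mllt10 junction 13 (11.9%). Robo1 junction 2, Ptov1 junction 1 and Phf8 junctions 1 and 3 held none of the searched letters. Searches ran along the sense strand and across the back-splice.

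The junctions of each host were also followed across samples beside those of 144 other hosts with at least 10 junction reads in every sample. By Pearson r of log2(CPM + 1) over the 12 samples, Camsap2 was most like Ascc3 (0.80) and Rasa2 (0.75), Robo1 like Plch1 (0.78) and Pwwp2a (0.70), and Lpgat1 like Zfp644 (0.68) and Slc8a1 (0.64). Mllt10 was most like Zfx (0.75) and Fryl (0.70), Ptov1 like Kat6b (0.65) and Nf1 (0.58), and Phf8 like Prom1 (0.62) and Herc3 (0.53). The samples share depth and 4 groups, and each r is among the 2 highest of 144, so these values are a description. On this scale a sample at 0 lies far from samples with reads. Ptov1 was at 0 in C3H replicate 1 and at 922 to 2750 CPM in all other samples. The weight of such samples in r was not tested.

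Genes of the miRNA pathway were listed as the machinery through which a decoy would act, from nuclear processing (Drosha, Dgcr8) to the Argonaute proteins and their silencing partners. All 25 were tested in each model, on gene counts. In rd1 and rd2 none passed both the 1.5-fold and the p threshold, which 15% and 4.57% of all genes did. In rd10, where 23.9% of all genes were called, 2 of the 25 were. Mov10, an RNA helicase bound to Argonaute, was called higher (log2 fold change 0.95, SE 0.13, adjusted p 3.39e-06 in edgeR), and Ago4, an Argonaute protein, lower (-0.71, SE 0.06, adjusted p 1.22e-09). By adjusted p under 0.05 alone, 15 were higher and 2 lower in rd1, 3 higher and 12 lower in rd10, and 1 higher and 1 lower in rd2. Of all genes tested, 43.2%, 54.1% and 9.7% passed that threshold in rd1, rd10 and rd2. The medians of the list were 0.11, -0.09 and 0.02 in rd1, rd10 and rd2, against -0.01, -0.00248 and -0.00125 over all genes tested.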

How the data were processed

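Total retina RNA of 12 mouse samples was depleted of ribosomal RNA and sequenced from directional libraries. The authors aligned reads to GRCm38 (mm10) with HISAT2 and deposited HTSeq 0.11.2 gene counts and FPKM. For circRNAs they used TopHat2 2.1.1 fusion junctions and CIRCexplorer, dropped candidates under 2 junction reads, and deposited junction counts and TPM, which here are counts scaled to 1000000 junction reads per sample. File starts count from 0 (11870 of 12510 were exon starts when read so, 24 when read from 1) and were shifted to 1-based.

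Junction counts, junction counts summed per host and gene counts were tested with edgeR 4.0.16 (quasi-likelihood, TMM; junctions with at least 2 reads in at least 3 samples, genes by filterByExpr), 1 model against C3H at a time, with p-values adjusted by Benjamini-Hochberg over all features tested. Junction calls required an unadjusted p under 0.05 and 2-fold, gene calls 1.5-fold. The circular-to-gene ratio used log(gene count + 1) as offset. Scripts were tested on simulated data. Results were recomputed with limma 3.58.1 (log2 of TPM + 1, TPM + 0.1 or FPKM + 1), with DESeq2 1.42.0, with other scalings and filters, and without each sample in turn. Exon spans and sequences came from GRCm38 with GENCODE vM21 and RefSeq miRNAs (pysam 0.24.0).

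The 6 hosts and the lists were chosen with earlier results of these data known. Junctions named in full met the filter in at least 1 comparison or are the 2 that the study names for PCR. Other junctions are named after their values were seen. Likeness took the 2 hosts with the highest r. Marker sums checked the tissue: Pde6b was at 241 to 245 FPKM in C3H, 56.7 to 57.6 in rd1 and 169 to 174 in rd10, and Prph2 at 885 to 976 in C3H and 421 to 482 in rd2. The other marker lists (cones, rod bipolar, amacrine, horizontal and ganglion cells, Mueller glia, pigment epithelium, lens, endothelium) were at summed medians of 192, 312, 144, 20.4, 322, 727, 121, 1.15 and 73.5 FPKM in C3H. The cone, ganglion cell and Mueller glia sums are given further with the results. The lens median was 0.53 in rd1 and 1.76 in rd10, and the endothelium median was 54.2 in rd10.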

Additional observations from a re-analysis of the deposited data

Results flagged for a closer look

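The summed junctions of 2 hosts were called between models, with p-values that did not survive adjustment over all hosts. Lpgat1 differed between rd2 and rd1 by a log2 fold change of 2.85 (edgeR adjusted p 0.554). Its 3 rd2 samples had 1, 8 and 5 reads and its 3 rd1 samples 0, 0 and 1. It differed between rd10 and rd2 by -2.61 (edgeR adjusted p 0.436), with 1, 0 and 1 reads in rd10. Lpgat1 met the read filter through the C3H and rd2 samples alone, so its calls are no independent support. Mllt10 differed between rd10 and rd2 by 1.10 (edgeR adjusted p 0.433). Leaving out rd2 replicate 1 gave 0.63 for Mllt10, and leaving out rd2 replicate 2 gave 2.27 and -2.05 for the Lpgat1 contrasts, none of them calls. The Lpgat1 call of rd2 against rd1 was also lost without rd2 replicate 3 or rd1 replicate 1 or 2, that of rd10 against rd2 without rd10 replicate 1, 2 or 3 or rd2 replicate 3, and the Mllt10 call without rd10 replicate 2 or rd2 replicate 3.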

How the results depend on the processing

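Gene counts gave 0 called hosts of 6 in each model under every alternative run. Junction calls (3 in each model) were 0, 1 and 0 in rd1, rd10 and rd2 by adjusted p, 5 in rd1 and 6 in rd10 with no filter, 6 in rd1 with all 12 samples in 1 fit, and 1 in rd2 with DESeq2. They ranged from 0 to 3 in rd1, 0 to 3 in rd10 and 0 to 3 in rd2 when 1 sample was left out. Without a C3H sample the junctions read only in C3H failed the filter, as did Mllt10 junction 13 in rd2 without C3H replicate 1 or 2. Without rd2 replicate 3 Robo1 junction 2 and Mllt10 junction 13 were tested and missed the threshold. Summed junctions (1, 1 and 0 hosts) gave 0 in rd1 and 0 in rd10 by adjusted p, 0 in rd1 with DESeq2 and with no filter, and 2 in rd1 with the library sizes of the gene counts. Without 1 sample they ranged from 0 to 1 in rd1, 0 to 2 in rd10 and 0 to 1 in rd2. Ratio calls (3, 0 and 0) were 0 in rd1 with the offset centred and 0 by adjusted p, and ranged from 0 to 3 in rd1, 0 to 1 in rd10 and 0 to 1 in rd2. For rd10 against rd1 (0 hosts) the library sizes of the gene counts gave 1, and leaving out 1 sample 0 to 1. For rd2 against rd1 (1 host) RLE size factors, DESeq2, adjusted p and the 6 samples of both models each gave 0, and leaving out 1 sample 0 to 1. For rd10 against rd2 (2 hosts) adjusted p gave 0, DESeq2, the 6 samples of both models and the library sizes of the gene counts each gave 1, and leaving out 1 sample 0 to 1. For Mllt10 the log2 difference of rd2 against rd1 (-0.35) ranged from -1.03 to 1.61 when 1 sample was left out, and turned positive without rd1 replicate 2 or rd2 replicate 1 and with the library sizes of the gene counts (0.06). With only the 6 samples of both models Lpgat1 failed the read filter and had no value. For the other alternatives that left out no sample, the cause of these shifts was not tested.

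Whether replicate numbers pair the samples was not settled. The correlation of same-numbered deviations from the group means ran from -0.0710 to 0.126 over genes and from -0.0867 to 0.113 over summed junctions. Over genes in rd1 the same-numbered values (0.0676, 0.0573 and 0.126) lay above all differently numbered ones (-0.0756 to 0.0227). Over genes in rd2 and rd10 the highest values were between differently numbered samples (0.132 and 0.0514). With a replicate block the junction calls were 2 in each model, the summed calls 0 in rd1 and 0 in rd10, the ratio calls in rd1 1, and the contrasts of rd10 with rd1, rd2 with rd1 and rd10 with rd2 1, 0 and 1. The ratio call was Mllt10 (-1.15), with Camsap2, Lpgat1 and Phf8 lost, and the calls between models were both Mllt10 (1.02 and 1.24). Robo1 junction 2 was lost in each model. Counts of 0 to 12 reads per sample limit every statement on single junctions other than Mllt10 junction 13 and Ptov1 junction 1.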
